A study of Mus musculus with 8 samples.

Results

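The genes that encode the chains of the collagens were followed in epidermal cells of aged and adult mice. They were taken as every row of the count table whose mouse symbol is Col, a number, the letter a and a number, which gave 44 of 27179 genes. Col17a1 and Col7a1, whose proteins hold the epidermis to the dermis, were kept apart from the fibrillar and minor collagens, and all 44 were placed in 9 classes. The 8 libraries, 4 aged and 4 adult, were made from epidermis scraped off the torso skin of C57bl/6J mice after dispase digestion, with a separate mouse for each library by the study's methods. In the labels the aged mice are 73 weeks old and the adult mice 17 to 25 weeks. By the labels both groups had control IgG, 210 µg in 100 µl, injected into the abdomen 3 times per week for 12 weeks. The methods describe these injections for ageing mice alone, starting at 73 weeks, and give a higher age for aged mice. They also list the adult and aged bulk libraries apart from those of injected aged mice. Whether either group was injected is therefore open, and if only the aged mice were, age and injection cannot be told apart. The cells were not sorted, so other cell types of skin could be present, and in such bulk samples fewer cells of a type and less RNA per cell cannot be told apart.

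Collagens are extracellular proteins built of chains that wind around each other into a helix. Fibroblasts make the fibrillar collagens I, III and V, which form the fibrils of the dermis, whereas basal keratinocytes make collagen XVII, a transmembrane protein of the hemidesmosome, and collagen VII, which forms the anchoring fibrils beneath the basement membrane. Loss of collagen XVII or VII causes blistering of the skin in humans. Collagen IV is the network of the basement membrane itself, and the fibril-associated collagens, such as XII, XVI and XIX, lie along fibrils or at basement membranes.

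Levels are given as CPM, the read count of a gene per equal library size, with library sizes corrected by the trimmed mean of M values (TMM), and levels of different genes are compared only as CPM per kilobase (kb) of exon. Per kb, Col17a1 stood first with 433 ± 137 CPM per kb (SD, n = 8), and its lowest library, at 222 CPM per kb, lay above the highest library of any other collagen. Next came Col16a1 at 23.7 ± 8.08 CPM per kb, Col7a1 at 21.3 ± 6.73 and Col4a6 at 11.8 ± 3.28 (SD, n = 8 for each). Col23a1, Col4a5 and Col18a1 lay between 10.2 and 10.3 CPM per kb. From Col16a1 downwards every gene overlapped in range with its neighbour in the order. These ranges do not compare genes within a library, and whether neighbours differ was not tested. In all, 7 collagen genes had a mean over 10 CPM per kb, 8 lay between 1 and 10, and 29 lay under 1, of which 14 were under 0.1.

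Collagen mRNA in these cells was thus mostly Col17a1, which made up 72.7% to 80.8% of the summed collagen level per kb in the 8 libraries. Col7a1 added 3.04% to 4.49%, and the 11 fibrillar genes together 0.375% to 1.75%. Collagen genes took 0.319% to 0.473% of all counts in the aged and 0.175% to 0.492% in the adult libraries.

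**Figure D1:**
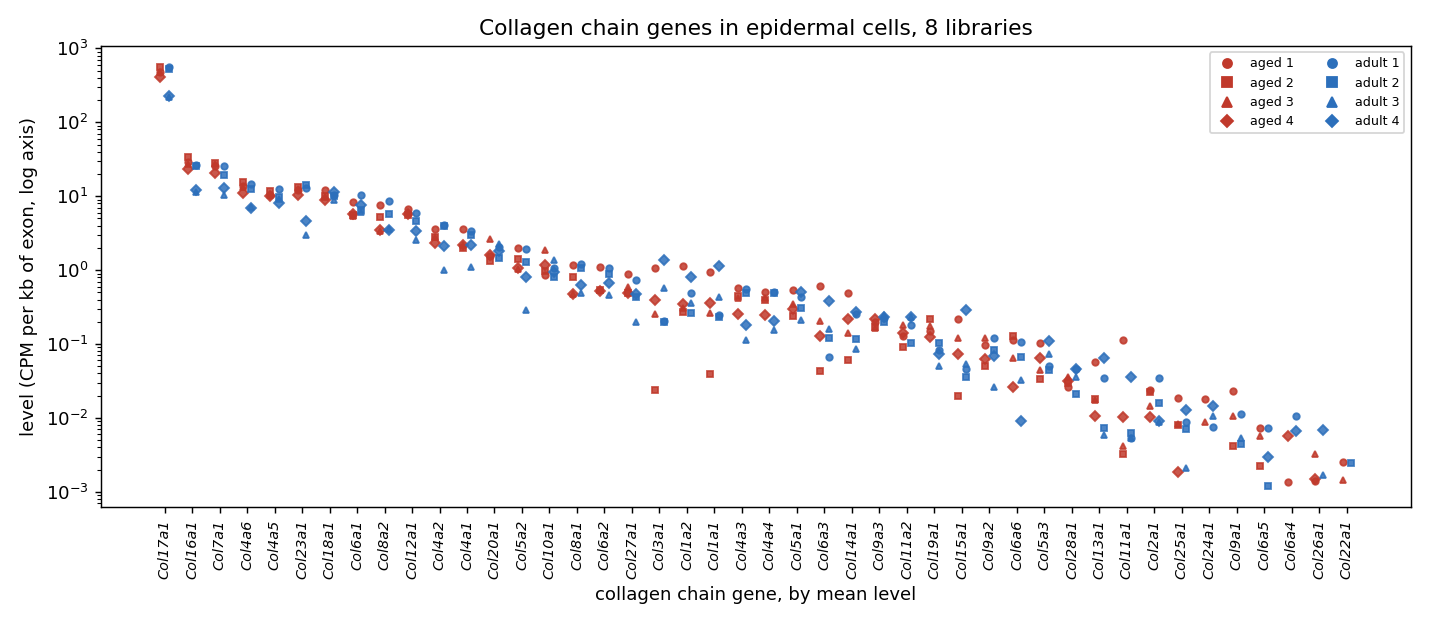
Level of each of the 44 collagen chain genes in each library, as CPM per kb of exon on a log axis, with genes ordered by their mean and libraries listed at 0 left out. Col17a1 stands apart at the left, from 222 to 562 CPM per kb, and 29 genes have means under 1 CPM per kb.

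The start regions of the 4 most abundant collagen genes per kb are shown here, since these genes were also low in the same libraries in the comparison that follows. Each is the sequence from 250 to 53 bases before a RefSeq start of the gene (build GRCm38.p6). These 198 bases lie outside every annotated transcript of the gene. For Col17a1 and Col7a1 that start is the outer end of the gene. For Col16a1 and Col4a6 the window ends closer than 53 bases to the outer end of the gene. The windows are chr19:47692095-47692292 on the minus strand for Col17a1, chr9:108953336-108953533 on the plus strand for Col7a1, chr4:130047590-130047787 on the plus strand for Col16a1 and chrX:141474129-141474326 on the minus strand for Col4a6, each written 5′ to 3′ on the strand of the gene. Capitals mark motif matches on either strand, and no matches overlapped. The TATA element was searched as TATAAA. Bases closer to that RefSeq start than 53 were left out, so the matches cannot show whether a TATA element lies there. The motif of Sp factors, called the GC box, was searched as GGGCGG. The site of the factor NF-Y was searched as CCAAT. The site of Fos and Jun was searched as TGANTCA.
Col17a1: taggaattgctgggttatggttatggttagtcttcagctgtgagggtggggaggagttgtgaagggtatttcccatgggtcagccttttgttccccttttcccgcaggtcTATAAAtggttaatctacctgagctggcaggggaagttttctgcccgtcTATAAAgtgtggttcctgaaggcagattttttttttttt
Col7a1: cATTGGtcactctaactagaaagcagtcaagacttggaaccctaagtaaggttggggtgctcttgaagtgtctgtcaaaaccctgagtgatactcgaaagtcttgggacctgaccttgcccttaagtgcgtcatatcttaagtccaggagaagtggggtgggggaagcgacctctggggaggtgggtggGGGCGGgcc
Col16a1: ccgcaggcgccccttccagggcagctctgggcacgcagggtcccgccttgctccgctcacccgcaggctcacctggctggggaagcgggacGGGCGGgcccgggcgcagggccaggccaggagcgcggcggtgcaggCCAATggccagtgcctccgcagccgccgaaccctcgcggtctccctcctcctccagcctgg
Col4a6: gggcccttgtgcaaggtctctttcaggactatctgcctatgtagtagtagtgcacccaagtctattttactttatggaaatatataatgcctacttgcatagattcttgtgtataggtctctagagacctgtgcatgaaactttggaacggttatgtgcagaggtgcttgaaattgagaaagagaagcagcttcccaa
Col17a1 held 2 matches to the TATA element, in a window with 45.5% G and C bases. Col7a1 and Col16a1 each held 1 GC box and 1 NF-Y site, at 53.5% and 76.8% G and C. Col4a6 held none of these motifs, at 41.9%. Among all 32851 RefSeq windows of this length the median G and C content was 51.5%, and 9.08% held a TATA element, 24.3% a GC box, 28.1% an NF-Y site and 5.50% a Fos and Jun site. No motif was common to the 4 genes. A window was found for 35 of the 44 collagen genes.

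Before the groups were compared, the libraries were checked against each other. Adult replicates 3 and 4 stood apart from the other adult libraries, with 6719 and 6808 CPM summed over 7 basal keratinocyte markers (among them Krt5, Krt14 and Trp63) against 11761 and 11834 CPM in adult replicates 1 and 2 and 9343 to 13726 CPM in the aged libraries. They also held 467 and 984 CPM summed over 10 hair shaft and inner sheath genes, against 19 to 365 CPM in the remaining libraries. The label of epidermal cells fits the markers, since differentiated keratinocyte genes summed to 3633 to 9906 CPM. Markers of adipocytes summed to at most 0.324 CPM, those of endothelium to at most 2.56 CPM, those of fibroblasts to 30.2 to 103 CPM and those of Schwann cells to 75.2 to 99.3 CPM. Immune cell markers summed to 33.7 and 78.2 CPM in adult replicates 3 and 4 and to 96.3 to 256 CPM in the other libraries. Pericyte and smooth muscle markers summed to 24.3 and 37.7 CPM against 62.4 to 99.6 CPM. Most of that sum was Cspg4, at 17 and 29.3 CPM against 54.8 to 92.6 CPM. Acta2, Tagln and Myh11 in adult replicates 3 and 4 lay within the range of the other libraries. Mitochondrial genes took 22.8% and 28.1% of the counts of adult replicates 3 and 4, 15.7% and 16.6% of those of adult replicates 1 and 2, and 15.7% to 23.4% in aged libraries. The part of any of these in the collagen levels was not tested. Totals ran from 75027694 to 90140102 counts. The main fold changes are therefore also given without adult replicates 3 and 4.

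The comparison of aged with adult epidermal cells asked which collagen genes differ with age. It was tested with edgeR's quasi-likelihood test on 17702 genes that passed a filter on low counts, and calls needed an adjusted p (Benjamini-Hochberg) under 0.1 and a log2 fold change beyond 0.322 in either direction. The study set the same cut-offs with DESeq2 and a batch term, on shrunken fold changes, whereas here they were applied to unshrunken estimates. Of the 44 collagen genes 35 passed the filter, and none was called, where 0.113% of all genes tested were called (20 genes, of which 5 or 0.0282% were higher and 15 or 0.0847% lower in aged cells). The remaining 9 (Col6a4, Col6a5, Col9a1, Col11a1, Col13a1, Col22a1, Col24a1, Col25a1 and Col26a1) had 5 to 196 reads over all 8 libraries and were not tested. At an unadjusted p under 0.05 there were 2 of 35, Col12a1 and Col19a1, both higher in aged cells, which is 5.71%, against 5.99% of all genes tested (2.29% higher and 3.7% lower in aged cells). The aged and adult libraries did not overlap for 1 of 35, Col19a1, against 3.54% of all genes tested. With DESeq2 1 of 35 was called, Col19a1, higher in aged cells, where 1.07% of all genes were called and 0.384% were called higher, and with limma-voom none of 35. With the replicate number as a block, 3 genes of 17702 (0.0169%) and no collagen were called, and 7 collagens (20%) had an unadjusted p under 0.05, against 12.6% of all genes. With DESeq2 and a term for the pairs of replicate numbers (1 and 2 against 3 and 4), an alternative chosen after seeing the data, 5 of 32 collagens were called, all higher in aged cells (Col4a6, Col7a1, Col12a1, Col16a1 and Col19a1), where 4.8% of all genes were called and 2.42% were called higher. Without adult replicates 3 and 4 edgeR called 0.0549% of all genes and no collagen. At an unadjusted p under 0.05 it gave 2 of 38 collagens, Col4a2 lower and Col19a1 higher in aged cells, against 3.21% of all genes.

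Estimated log2 fold changes of aged over adult lay above 0 for 22 of the 35 tested collagen genes (62.9%, against 52.1% of all genes tested), with a median of 0.10 against 0.01 over all genes. Without adult replicates 3 and 4 the median was −0.04 and 15 of 35 lay above 0. Summed over the 44 genes, collagen CPM was 3941 ± 471 in aged and 3097 ± 1342 in adult cells (SD, n = 4 each). The aged libraries ran from 3333 to 4480 CPM, inside the span of the adult libraries except for aged replicate 2, since adult replicates 1 and 2 had 4428 and 4074 CPM and replicates 3 and 4 had 1863 and 2024 CPM. The ratio of the group means was 1.27, and 0.927 without adult replicates 3 and 4.

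**Figure D2:**
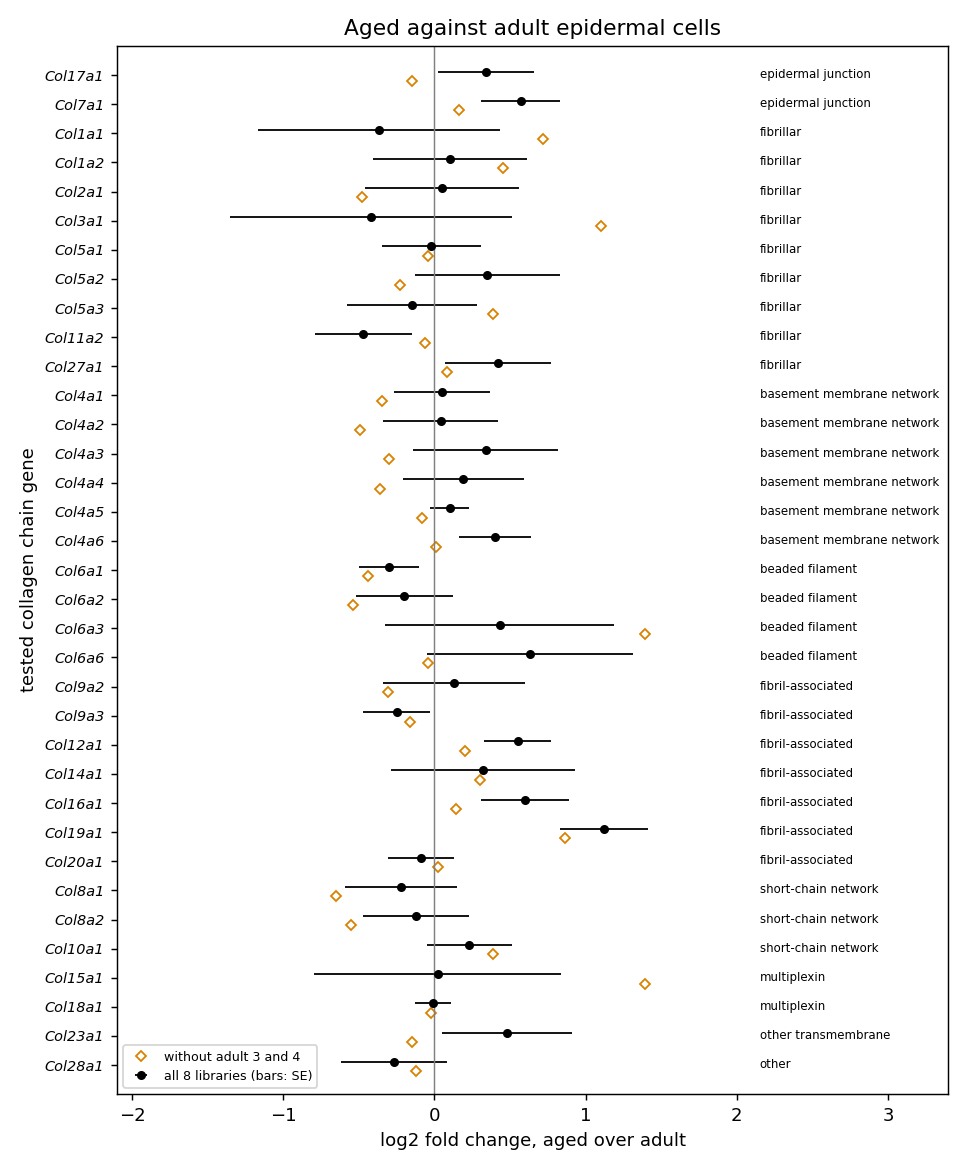
Log2 fold change of aged over adult for the 35 tested collagen genes, by class, from all 8 libraries (black, with bars of 1 SE) and without adult replicates 3 and 4 (orange diamonds). Of the black points 22 lie above 0, of the diamonds 15, and Col19a1 lies highest among the black points at 1.12.

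Collagen XVII and collagen VII, the collagens of the epidermal junction, had higher mean levels in aged than in adult cells, but neither passed the test and both depended on adult replicates 3 and 4. Col17a1 (chr19:47646341-47692042) measured 2883, 3379, 2906 and 2465 CPM in aged replicates 1 to 4 and 3319, 3140, 1331 and 1375 CPM in adult replicates 1 to 4. Adult replicates 1 and 2 lay within the aged range, and only adult replicates 3 and 4 lay below it. Aged over adult, the log2 fold change was 0.34 ± 0.32 (SE, edgeR adjusted p = 0.883), and it was −0.15 without those libraries. Col7a1 (chr9:108953586-108984875) measured 261, 290, 284 and 210 CPM in the aged and 264, 202, 107 and 132 CPM in the adult libraries. Its groups overlapped through adult replicate 1, which exceeded aged replicates 1 and 4. On the log2 scale the fold change was 0.57 ± 0.26 (SE, edgeR adjusted p = 0.83), and 0.16 without adult replicates 3 and 4. Per kb, Col17a1 stood 17.5 to 26.5 times above Col7a1 in the 8 libraries.

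The proteins that bind these collagens were read from a list of 13 junction partners, which are integrin, laminin and plakin genes and related adhesion genes. None of the 13 was called with edgeR, DESeq2 or limma-voom, 1 had an unadjusted p under 0.05 (7.69%, against 5.99% of all genes) and 9 had a fold change above 0 (69.2%, against 52.1%), with a median log2 fold change of 0.26 against 0.01 over all genes. Without adult replicates 3 and 4 the median was −0.18, and 0 of 13 lay above 0. The member at an unadjusted p under 0.05 was Fras1, an extracellular matrix protein of the basement membrane, which measured 9.56, 2.46, 5.85 and 5.44 CPM in aged mice and 8.21, 6.64, 20.5 and 17.8 CPM in adult mice. Its high libraries were adult replicates 3 and 4, and its log2 fold change was −1.19 ± 0.46 (SE, edgeR adjusted p = 0.781), and −0.35 without those libraries. The most abundant partners per kb were Plec, the plakin that ties hemidesmosomes to keratin filaments, and Itga6, an integrin chain of the hemidesmosome. Plec had a log2 fold change of −0.01 ± 0.16 (SE), and its 8 libraries lay between 1089 and 1568 CPM. Itga6 had 458 to 608 CPM in aged against 235 to 524 CPM in adult cells (log2 fold change 0.42 ± 0.27, SE), and its log2 fold change was −0.01 without adult replicates 3 and 4.

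The fibril-associated collagens held both genes with an unadjusted p under 0.05. Col12a1 (chr9:79598987-79721141), a chain that lies on the surface of collagen I fibrils, measured 102, 85.5, 91.7 and 86.9 CPM in the aged libraries and 89.3, 70.4, 39 and 50.8 CPM in the adult ones. Adult replicate 1 lay within the aged range and the other adult libraries below it. Its log2 fold change was 0.55 ± 0.22 (SE, unadjusted p = 0.035, edgeR adjusted p = 0.805), and 0.20 without adult replicates 3 and 4. Col19a1 (chr1:24257683-24587922), a minor collagen of basement membrane zones, had the highest fold change of the 35 at a low level. It measured 1.05, 1.48, 1.21 and 0.869 CPM in the aged and 0.567, 0.703, 0.343 and 0.504 CPM in the adult libraries, from 394 and 173 reads. Every aged library lay above every adult library. This gave a log2 fold change of 1.12 ± 0.29 (SE, unadjusted p = 0.0037, edgeR adjusted p = 0.550) and remained 0.86 without adult replicates 3 and 4, while DESeq2 gave an adjusted p of 0.046. In replicates 1 and 2 alone it was 1.01, and in replicates 3 and 4 alone 1.27.

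**Figure D3:**
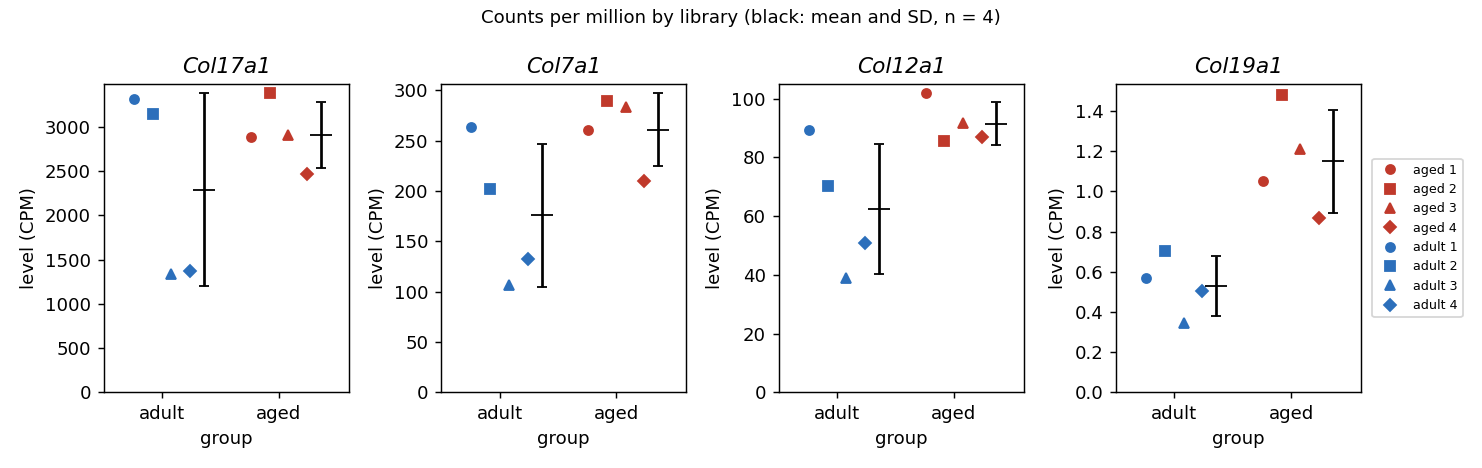
CPM of Col17a1, Col7a1, Col12a1 and Col19a1 in each library (symbols, by replicate number) with the mean and SD of each group of 4 in black. Adult replicates 3 and 4 are the lowest symbols of each panel, and the groups are separate only for Col19a1, at 0.869 to 1.48 CPM in aged mice and 0.343 to 0.703 CPM in adult mice.

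Col16a1 (chr4:130047817-130099277), the second most abundant collagen per kb and a minor collagen of the zone beneath the epidermis, measured 198, 232, 183 and 157 CPM in aged against 179, 171, 76.5 and 81.2 CPM in adult cells. The first 2 adult libraries lay within the aged range, and the others lay below it. Aged over adult, the log2 fold change was 0.60 ± 0.29 (SE, edgeR adjusted p = 0.836), and 0.14 without adult replicates 3 and 4. The other tested members of this class (Col9a2, Col9a3, Col14a1 and Col20a1) had fold changes from −0.25 to 0.32 on the log2 scale. Summed, the class had 297 ± 31.0 CPM in the aged libraries and 202 ± 76.4 CPM in the adult ones (SD, n = 4), of which adult replicates 1 and 2 had 282 and 252 CPM.

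The fibrillar collagens were low in these cells, and 5 of the 9 tested were highest in aged replicate 1 and adult replicate 4. Of the 11 genes 9 were tested, none had an unadjusted p under 0.05, and their median log2 fold change was −0.02, with 4 above 0. Col3a1, a chain of the fibrils of elastic tissues, measured 10.6, 0.231, 2.53 and 3.86 CPM in aged mice and 2.03, 1.98, 5.55 and 13.5 CPM in adult mice. The span over the 8 libraries was 58.7-fold, with aged replicate 1 and adult replicate 4 high and aged replicate 2 low. Col1a1, a chain of the main fibrillar collagen, measured 6.11, 0.262, 1.74 and 2.34 CPM in aged against 1.63, 1.54, 2.80 and 7.54 CPM in adult cells. The same 2 libraries were high and the same library was low, and the groups overlapped throughout. Log2 fold changes were −0.37 ± 0.80 for Col1a1 and −0.42 ± 0.93 for Col3a1 (SE, edgeR adjusted p = 0.954 and 0.955), and 0.72 and 1.10 without adult replicates 3 and 4. Col1a1 and Col3a1, like the pairs of collagen IV genes below, were chosen after their values had been seen.

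The most abundant fibrillar genes per kb were others. Col5a2, a chain of the collagen that regulates fibril width, had a mean of 1.23 CPM per kb, and Col27a1, a fibrillar collagen known from cartilage, had 0.536 CPM per kb. Col5a2 measured 19.1, 13.7, 9.81 and 10.3 CPM in the aged libraries and 18.6, 12.4, 2.78 and 7.67 CPM in the adult ones. It was low in adult replicate 3 above all, and its log2 fold change was 0.35 ± 0.48 (SE), or −0.23 without adult replicates 3 and 4. Col27a1 measured 11.6, 6.32, 7.66 and 6.39 CPM in aged mice and 9.47, 5.63, 2.60 and 6.13 CPM in adult mice, with a log2 fold change of 0.42 ± 0.35 (SE), which was 0.17 without adult replicate 3 and 0.08 without adult replicates 3 and 4. Summed, fibrillar collagens had 27.1 to 69.4 CPM in aged and 22.3 to 52.3 CPM in adult libraries.

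Aged replicate 1 and adult replicate 4 were the 2 highest of the 8 libraries for 9 of the 35 tested collagens (25.7%), namely Col1a1, Col1a2, Col3a1, Col5a1, Col5a3, Col6a3, Col14a1, Col15a1 and Col18a1, and for 2.23% of all genes tested. The pattern was noticed in these values, and the shares are a description. The same 2 libraries were highest for 5 of 9 tested fibroblast markers (Pdgfra, Dcn, Lum, Dpt and Fbn1). Of the others, Pdgfrb and Thy1 were higher in every aged than in every adult library, with log2 fold changes of 2.07 and 0.61, and had an unadjusted p under 0.05 without being called by edgeR, while DESeq2 called Pdgfrb. These are 2 of 9, against 5.99% of all genes. Dcn, a proteoglycan of dermal fibroblasts, measured 14.8 CPM in aged replicate 1 and 0.43 to 2.85 CPM in the other aged libraries, and 11.7 CPM in adult replicate 4 and at most 4.34 CPM in the other adult libraries. Twist2, a fibroblast factor, had 4 reads, all in aged replicate 1, and the list of 11 markers summed to 103, 46.7, 59.7 and 57.0 CPM in the aged libraries and 80.1, 82.1, 30.2 and 67.1 CPM in the adult ones. Thy1 and Vim are also expressed by other cells, and Vim made up 52.4 CPM of the sum in aged replicate 1. The part of fibroblast RNA in the levels of fibrillar collagens was not tested.

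**Figure D4:**
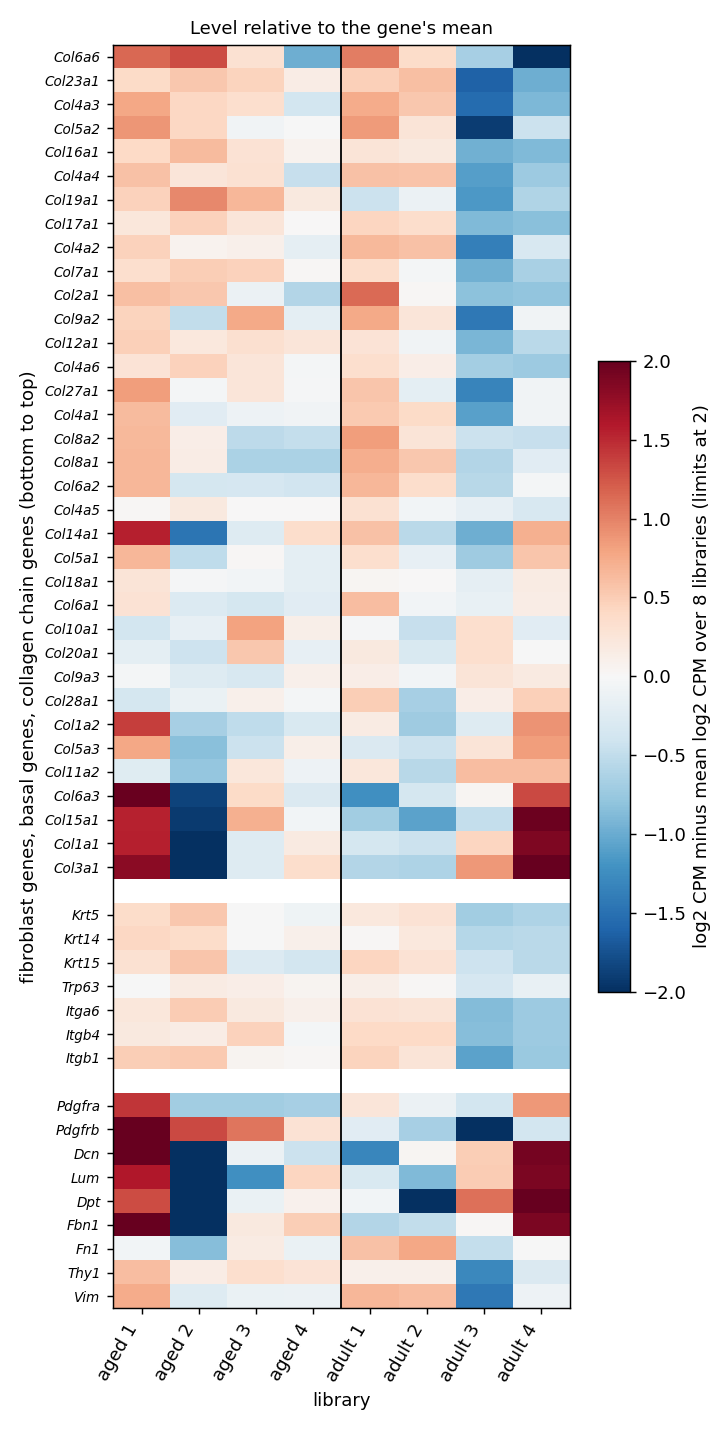
Log2 CPM of each gene minus its mean over the 8 libraries, for the 35 tested collagen genes (ordered from the lowest to the highest sum of adult replicates 3 and 4), 7 basal keratinocyte markers and the 9 tested fibroblast markers, with colours ending at 2 and −2. The upper collagens and the basal markers are blue in adult replicates 3 and 4, and Col1a1, Col3a1, Col6a3 and Col15a1 at the lower end are red in aged replicate 1 and adult replicate 4, as are Dcn, Lum, Dpt and Fbn1.

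Adult replicates 3 and 4 were the 2 lowest libraries for 13 of the 35 tested collagens (37.1%), against 17.1% of all genes tested. These were Col2a1, Col4a2, Col4a3, Col4a4, Col4a5, Col4a6, Col5a2, Col7a1, Col12a1, Col16a1, Col17a1, Col19a1 and Col23a1. This pattern too was noticed in the values. The same held for 10 of the 13 junction partners and for 7 of 7 basal markers. Itga6, Itgb4 and Itgb1 are on both lists and in both counts. Krt5, the keratin of basal cells, had 3909, 4373, 2995 and 2836 CPM in aged mice and 3508, 3669, 1861 and 1969 CPM in adult mice. The part of basal cell share in these collagen levels was not tested.

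Collagen IV genes lie in pairs that point away from each other, and all 6 were tested. None had an unadjusted p under 0.05, and all 6 fold changes lay above 0, from 0.04 to 0.40 on the log2 scale, but only 1 of 6 did without adult replicates 3 and 4. Col4a6 and Col4a5, whose starts lie 1275 bases apart on chromosome X in RefSeq, were the most abundant per kb. Col4a6 measured 110, 125, 107 and 88.3 CPM in aged against 115, 98.9, 56.6 and 54.6 CPM in adult cells, with adult replicates 3 and 4 below the remaining libraries. Its log2 fold change was 0.40 ± 0.24 (SE, edgeR adjusted p = 0.836), and 0.01 without them. Col4a5 was more even, at 69.2, 78.7, 68.8 and 68.6 CPM in the aged libraries and 84.6, 66.2, 61.3 and 54.6 CPM in the adult ones (log2 fold change 0.10 ± 0.13, SE). The ratio of Col4a5 to Col4a6 per kb was 0.750 to 0.922 in the aged libraries, 0.875 and 0.794 in adult replicates 1 and 2, and 1.29 and 1.19 in adult replicates 3 and 4.

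Col4a1 and Col4a2, the chains present in nearly all basement membranes, start on opposite strands of chromosome 8 and share 85 bases at their starts. Col4a1 measured 27.0, 14.9, 16.2 and 16.5 CPM in aged mice and 25.0, 22.5, 8.19 and 16.5 CPM in adult mice, and Col4a2 24.1, 18.4, 18.7 and 15.4 CPM in aged against 27.4, 26.3, 6.75 and 14.0 CPM in adult cells. Both were lowest in adult replicate 3. Their ratio per kb lay between 0.717 and 1.08 in all libraries, and their log2 fold changes were 0.05 ± 0.32 and 0.04 ± 0.38 (SE). Col4a3 and Col4a4, chains known from the kidney filter, share 114 bases on chromosome 1 and had 1.14 to 5.66 and 1.66 to 5.37 CPM. Their ratio per kb was 0.730 to 1.12, and their log2 fold changes were 0.34 ± 0.48 and 0.19 ± 0.40 (SE). Of the exonic length of Col4a3, 5.65% is shared with a gene on the opposite strand, and the use of strand in counting is not given, so its value is less certain.

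Col23a1 (chr11:51289679-51583925), a transmembrane collagen like collagen XVII, showed the widest span over the libraries, 4.68-fold, among the 7 collagens over 10 CPM per kb. It measured 68.7, 76.6, 71.9 and 58.8 CPM in the aged libraries and 73.3, 80.4, 17.2 and 26.8 CPM in the adult ones. Adult replicates 1 and 2 lay at the level of the aged libraries, and replicates 3 and 4 lay far below. On the log2 scale the fold change was 0.48 ± 0.43 (SE, edgeR adjusted p = 0.879), and −0.15 without them. The next member of its class, Col13a1, had 81 reads in all 8 libraries and was not tested.

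Col18a1, whose protein carries the endostatin domain at its end and lies in basement membranes, was the most even of the abundant collagens. It measured 84.9, 70.4, 68.3 and 62.0 CPM in aged mice and 73.6, 71.3, 63.2 and 79.5 CPM in adult mice, with a log2 fold change of −0.01 ± 0.12 (SE). Adult replicate 3 was the lowest adult library and adult replicate 4 the highest, and the groups overlapped. Its relative Col15a1 had 0.126 to 1.39 CPM in aged against 0.227 to 1.86 CPM in adult cells (log2 fold change 0.02 ± 0.82, SE, and 1.39 without adult replicates 3 and 4).

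Of the beaded-filament collagens, Col6a1 measured 36.1, 24.5, 23.3 and 25.3 CPM in the aged libraries and 45.6, 28.7, 26.8 and 33.0 CPM in the adult ones. Its aged mean was the lower, but the groups overlapped through aged replicate 1. Its log2 fold change was −0.30 ± 0.20 (SE, edgeR adjusted p = 0.846), and −0.44 without adult replicates 3 and 4. Col6a2, its partner chain, had 4.37 to 9.07 CPM in aged mice and 3.88 to 9.02 CPM in adult mice (log2 fold change −0.20 ± 0.32, SE, and −0.54 without adult replicates 3 and 4). Of the short-chain network collagens, Col8a2 had 15.2 to 34.3 CPM in aged against 15.8 to 39.0 CPM in adult cells (log2 fold change −0.12 ± 0.35, SE, and −0.55 without adult replicates 3 and 4), and replicates 1 were its highest libraries in both groups. Col10a1, known from cartilage, had 2.65 to 5.94 and 2.49 to 4.30 CPM (log2 fold change 0.23 ± 0.28, SE, and 0.39 without adult replicates 3 and 4). In the last class Col28a1 had 0.102 to 0.227 CPM (log2 fold change −0.27 ± 0.35, SE, and −0.12 without adult replicates 3 and 4), and Col26a1 had 9 reads in all and was not tested.

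Genes for enzymes and chaperones that modify, fold, trim and crosslink collagen chains were read from a list of 31, of which 28 were tested. None was called with edgeR, DESeq2 or limma-voom and 1 had an unadjusted p under 0.05, which is 3.57% against 5.99% of all genes. The median log2 fold change was 0.12, with 18 of 28 above 0, and 0.06 without adult replicates 3 and 4. The gene at an unadjusted p under 0.05 was P4ha1, a catalytic chain of the prolyl hydroxylase that stabilises the collagen helix. It measured 40.0, 38.8, 50.8 and 55.6 CPM in the aged libraries and 39.8, 40.1, 31.0 and 28.1 CPM in the adult ones. Replicates 1 and 2 were alike in both groups, and replicates 3 and 4 were apart. This gave a log2 fold change of 0.41 ± 0.16 (SE, unadjusted p = 0.029, edgeR adjusted p = 0.781), and 0.21 without adult replicates 3 and 4. P4hb, the other chain of that enzyme and a general protein-folding enzyme, had 166 to 226 CPM in all libraries (log2 fold change −0.10 ± 0.11, SE), and Ppib, a proline isomerase, had 68.9 to 104 CPM (−0.05 ± 0.14, SE).

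The comparison was repeated within each pair of replicate numbers. In replicates 1 and 2 alone edgeR called no collagen and no gene of 17921 (0%). An unadjusted p under 0.05 was found there for 1 collagen, Col19a1, and for 3.3% of all genes. In replicates 3 and 4 alone 9 of the 34 collagens tested there and above were called (26.5%), where 12% of all 17744 genes were called and 6.53% were called higher in aged cells. Higher in aged cells were 8, Col4a3, Col4a6, Col7a1, Col12a1, Col16a1, Col17a1, Col19a1 and Col23a1, and lower was Col3a1. Log2 fold changes there were 0.97 for Col17a1, 1.03 for Col7a1, 1.09 for Col16a1 and 1.55 for Col23a1 (edgeR adjusted p = 0.029, 0.022, 0.0069 and 0.011), against −0.04, 0.25, 0.30 and −0.07 in replicates 1 and 2 alone. That the effects differ between the pairs was not tested. Each pair has 2 libraries per group, and the adult libraries of the second pair are those already seen to stand apart. The 8 called higher are all among the 13 collagens that were lowest in those 2 libraries. These calls therefore restate that pattern and are not separate evidence of a difference with age.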

How the data were processed

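The authors deposited a table of raw counts, whole numbers for 27179 Entrez genes in 8 libraries (TruSeq stranded total RNA, though the labels name polyA RNA, paired reads of 50 bases), not normalized. By the study's methods and the processing notes, reads were aligned to mm10 (the notes also list mm9) with STAR 2.5.2b and counted with featureCounts. Reads mapping to several places were not counted, a read over several genes was counted for all of them, and the strand setting is not given in the sources used. At 75027694 to 90140102 counts per library the counting error is small for abundant genes, so the spread between mice limits their precision. It is larger for collagens with few reads, such as Col19a1 with 25 to 141 reads per library. Replicates of a group differed beyond counting error (chi-square per degree of freedom 70.7 to 397).

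Symbols and positions came from RefSeq GRCm38.p6 and exon lengths from GENCODE. The quasi-likelihood test of edgeR 4.0.16 (R 4.3.3) was fitted over the 17702 genes kept by its filter, with TMM scaling. All adjusted p-values are over these genes. Alternatives were other scalings and filters, limma-voom (limma 3.58.1), DESeq2 1.42.0, the replicate number as a block, a term for the pairs of replicate numbers, and libraries left out. The study fitted an experimental batch, which the sources at hand do not give per sample, so none was fitted.

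Same-numbered aged and adult libraries deviated together from their group means (correlations over genes 0.297, 0.471, 0.249 and 0.306), and on this evidence alone the replicate numbers were treated as pairs. Aged replicate 4 with adult replicate 3 gave 0.403, so the pairing is uncertain.

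Named were Col17a1 and Col7a1, collagens at an unadjusted p under 0.05, the 2 most abundant genes per kb of each further class and, of the other lists, genes at that p and the 2 most abundant. The members, lists and several alternatives were chosen with earlier results of these data known.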

Additional observations from a re-analysis of the deposited data

Results flagged for a closer look

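In 8 of 68 groups of 4 libraries that were checked, the highest or lowest library lay apart from the others by a gap above Dixon's critical share of the range, where chance gives about 1 in 20. Aged replicate 1 was the high library in 5 of them. In the aged group Col6a1 was 36.1 CPM in replicate 1 and at most 25.3 CPM in the others, Col6a2 was 9.07 against at most 4.52 CPM, and Col4a1 was 27.0 against at most 16.5 CPM. Col13a1 was 0.266 CPM in that library and at most 0.084 CPM in the other aged ones, and the summed level of the fibrillar collagens was 69.4 against at most 31.4 CPM. Col4a5 was 78.7 CPM in aged replicate 2 and at most 69.2 CPM in the other aged libraries. Among adult libraries Col15a1 was 1.86 CPM in replicate 4 and at most 0.343 CPM in the others, and Plec was 1508 CPM in replicate 2 and at most 1210 CPM in the others.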

How the results depend on the processing

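Of all genes 20 were called. The count was 13 on library size alone, 190 with DESeq2, 3 with the replicate block, 57 with the term for replicate pairs, 751 with DESeq2 and that term (added after seeing the data), 10 without adult replicates 3 and 4, 0 in replicates 1 and 2 alone, 2135 in replicates 3 and 4 alone, and 6 to 15 with any 1 library left out (6 without aged replicate 3). Collagens called were 0, and 1 with DESeq2, 5 with DESeq2 and the pair term (Col4a6, Col7a1, Col12a1, Col16a1 and Col19a1, all higher in aged) and 9 in replicates 3 and 4 alone, and 0 with the replicate block and with any 1 library left out. Processing genes called were 6, and junction partners 10, in replicates 3 and 4 alone, and 2 partners were called with DESeq2 and the pair term. The replicate block changed no other call.

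The sign changes listed here are those of 23 single collagens, and others, such as Col2a1 and Col6a6, also turned sign without adult replicates 3 and 4. Among the 23, log2 fold changes turned sign without adult replicates 3 and 4 for Col17a1 (−0.15), Col5a2 (−0.23), Col4a5 (−0.08), Col23a1 (−0.15), Col1a1 (0.72), Col3a1 (1.10), Col4a1 (−0.35), Col4a2 (−0.49), Col4a3 (−0.30) and Col4a4 (−0.36). In replicates 1 and 2 alone they did for Col17a1 (−0.04), Col4a5 (−0.02), Col10a1 (−0.03), Col18a1 (0.11), Col23a1 (−0.07), Col1a1 (1.0), Col3a1 (1.42), Col4a1 (−0.18), Col4a2 (−0.33), Col4a3 (−0.04) and Col4a4 (−0.15). Col15a1 was −0.86 in replicates 3 and 4 alone, and Col18a1 0.01 under upper quartile scaling and 0.03 on library size alone. With 1 library left out the range spanned 0 for Col1a1 (−1.23 to 0.39), Col3a1 (−1.40 to 0.43), both above 0 only without adult replicate 4, Col4a1 (−0.19 to 0.25), Col4a2 (−0.24 to 0.29), Col4a4 (−0.04 to 0.45), Col6a2 (−0.53 to 0.01), Col8a2 (−0.40 to 0.21), Col10a1 (−0.06 to 0.39), Col15a1 (−0.59 to 1.3) and Col18a1 (−0.10 to 0.05). None of these genes passed the test with all libraries. Of 299 values for 23 collagens under the 13 other alternatives, 260 kept direction and side of the threshold, 24 turned sign and 15 moved past the threshold. The causes were not tested. Scaling moved the median log2 fold change of all genes by less than 0.1. Depth limits the 9 untested collagens, with 5 to 196 reads in all.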
